A study of Mus musculus with 12 samples.

Results

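Cytotoxic lymphocytes, which are natural killer cells, CD8 T cells and related innate-like T cells, kill target cells by releasing granules. This account covers 10 transcripts known from those cells, Gzma, Gzmb, Nkg7, Ctsw, Prf1, Klrd1, Klrk1, Ccl5, Il2rb and Ifng, taken by name from the 53465 genes counted in mouse skin RNA. The 12 bulk RNA-seq libraries form 4 groups of 3. WT untreated and WT UVB skin came from mice labelled Foxp3-WT, at a control site that was not irradiated and at a shaved patch of the back flank given 6 doses of ultraviolet B light (UVB). DE2 untreated and DE2 UVB skin came from the same kinds of site in mice whose genotype is written Foxp3-E2, Foxp3-DE2 or Foxp3dExon2, names that refer to exon 2 of Foxp3, the transcription factor of regulatory T cells. By the treatment text the control sites belong to irradiated mice, so untreated skin is not skin of an unexposed animal. The dose is 200 mJ/cm2 in the sample tags and 100 mJ/cm2 in the treatment text, and which is right could not be settled. The labels give no strain, sex, age, batch or animal, do not say where the untreated site lay or whether it was shaved, and do not tie an irradiated library to an untreated one, so a p-value here measures the spread between libraries that may share a source.

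Perforin, encoded by Prf1, opens pores in the membrane of a target cell, and granzymes A and B, encoded by Gzma and Gzmb, are serine proteases that enter and trigger its death. Nkg7 is a granule membrane protein needed for efficient degranulation, and Ctsw is a cysteine cathepsin of cytotoxic cells. Klrd1 (CD94) pairs with NKG2 proteins to read the class Ib molecule Qa-1, Klrk1 (NKG2D) reads stress-induced ligands, and Il2rb is the beta chain shared by the interleukin 2 and interleukin 15 receptors. Ccl5 is a chemokine that recruits T cells and myeloid cells, and Ifng encodes interferon gamma, which switches on antigen presentation and chemokines in the surrounding tissue. Several of these genes are not confined to killer cells: Ccl5 is also made by myeloid and epithelial cells, and Ctsw and Nkg7 by other T cell subsets.

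RefSeq promoter sequence on GRCm38.p6 matched 6 of the 10 symbols (Gzma, Gzmb, Nkg7, Prf1, Klrk1 and Ifng), while Ctsw, Klrd1, Ccl5 and Il2rb are named only. The bases before the start of 3 granule genes are shown because Gzmb and Nkg7 passed a test below and Gzma is the companion granzyme; each reads 5′ to 3′ on the gene's own strand, with capitals for motif matches. The Nkg7 stretch stops at the start of the annotated GRCm38 gene, which lies upstream of the RefSeq start.
Gzma, chr13:113100982-113101231, minus strand: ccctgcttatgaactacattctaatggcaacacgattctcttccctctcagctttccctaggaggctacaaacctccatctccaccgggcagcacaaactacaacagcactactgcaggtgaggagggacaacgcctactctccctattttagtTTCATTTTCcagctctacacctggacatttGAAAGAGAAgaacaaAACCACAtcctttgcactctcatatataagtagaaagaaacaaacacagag
Gzmb, chr14:56262335-56262584, minus strand: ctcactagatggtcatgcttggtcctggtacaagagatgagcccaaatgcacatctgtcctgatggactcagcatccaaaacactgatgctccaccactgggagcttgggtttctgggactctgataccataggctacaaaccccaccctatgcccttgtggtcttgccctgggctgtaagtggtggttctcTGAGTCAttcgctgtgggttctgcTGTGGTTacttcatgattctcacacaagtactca
Nkg7, chr7:43436888-43437072, plus strand: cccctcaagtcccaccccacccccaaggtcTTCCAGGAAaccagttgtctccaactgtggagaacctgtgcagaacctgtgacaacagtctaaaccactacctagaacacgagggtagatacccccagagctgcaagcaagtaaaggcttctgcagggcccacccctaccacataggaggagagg
Both strands of the 250 bases before each RefSeq start were searched for 6 motifs of factors that act in cytotoxic or interferon-exposed cells, and overlapping matches were allowed. Runx letters (TGTGGTT) stood in 3 of the 6 windows, at -51 to -45 in Gzma, -34 to -28 in Gzmb and -129 to -123 in Klrk1, against 4.4% of 32851 windows in the table. An interferon response core (GAAANNGAA) was found at -96 to -88 and -66 to -58 in Gzma and at -48 to -40 in Klrk1, against 7.13% of windows. The GAS motif of STAT proteins (TTCNNNGAA) was found at -220 to -212 in Nkg7 and -249 to -241 in Ifng, against 7.02% of windows. An AP-1 motif (TGANTCA) lay at -58 to -52 in Gzmb, against 6.75% of windows, and a T-box motif (AGGTGTGA) at -14 to -7 in Nkg7, downstream of the stretch shown, against 1.12%. None of the 6 windows held the NF-kB motif, which 3.9% of windows did, and the Prf1 window held no match to any of the 6. A match says only that the letters are present.

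The libraries held between 2809142 and 4741726 counts, and in the smallest, DE2 UVB replicate 3, 3 counts correspond to 1.09 CPM, the usual unit of counts divided by library size, here with TMM-scaled sizes. Skin markers were present throughout: 8 keratinocyte genes summed to 5228 to 7768 CPM in WT untreated, 5417 to 8413 in WT UVB, 7505 to 13433 in DE2 untreated and 20722 to 25800 in DE2 UVB skin. Tissue make-up differed in ways that sit beside every comparison, with the largest muscle and hair follicle differences in DE2 untreated skin. A list of 16 skeletal muscle genes summed to 69530 to 157762 CPM there, against 30763 to 38942 in WT untreated, 14301 to 66552 in WT UVB and 27420 to 34980 in DE2 UVB skin. A list of 18 hair follicle genes summed to 176 to 855 CPM there, against 13703 to 25081, 25830 to 32076 and 10494 to 17409 in the same order. Irradiated DE2 skin thus also differed from irradiated WT skin without overlap, with a lower hair follicle sum and a higher keratinocyte sum. Their part in the results was not tested. Fits with a muscle or hair follicle term are given below. Both terms set the DE2 untreated libraries apart from all others, so those fits cannot separate tissue make-up from group. In bulk tissue, fewer cells of a type and less RNA per cell cannot be told apart.

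The 10 transcripts were scarce in skin of every group, and their summed level was highest in irradiated DE2 skin. They totalled 176 counts in WT untreated, 110 in WT UVB, 182 in DE2 untreated and 630 in DE2 UVB skin. The summed level was 12.8 ± 5.34 CPM (SD, n = 3) in WT untreated, 10.2 ± 3.12 in WT UVB, 15.9 ± 5.51 in DE2 untreated and 58.5 ± 13.4 in DE2 UVB skin. The 3 irradiated DE2 libraries stood at 72.1, 58.3 and 45.2 CPM, and no other library exceeded 21.9 CPM. Nkg7 made up 30.3% of the counts in irradiated DE2 skin, and 38.6%, 14.5% and 45.1% in the WT untreated, WT UVB and DE2 untreated groups. The make-up differed between the 3 irradiated DE2 libraries: Gzma took its largest share in replicate 1 and was at 0 in replicate 3, and Gzmb took its largest share in replicate 2.

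**Figure D1:**
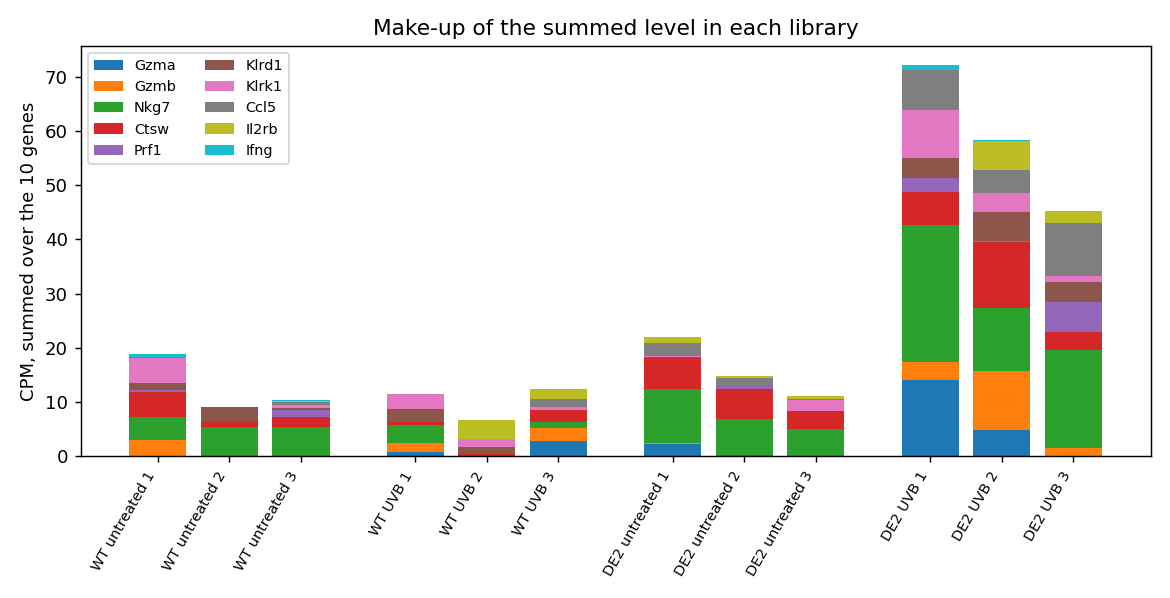
Summed level of the 10 transcripts in CPM (vertical axis from 0) in each of the 12 libraries (horizontal axis), stacked by gene. The 3 irradiated DE2 libraries stand at 72.1, 58.3 and 45.2 CPM and no other library passes 21.9 CPM, while the genes that fill the bars differ from library to library.

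Among the granule genes, Nkg7, the degranulation protein, was the most counted. Nkg7 (chromosome 7, 43437073 to 43438249 on GRCm38) had 19, 23 and 26 counts in WT untreated, 12, 0 and 4 in WT UVB, 41, 23 and 18 in DE2 untreated and 93, 48 and 50 in DE2 UVB skin. Its level was 4.97 ± 0.724 CPM (SD, n = 3) in WT untreated, 1.5 ± 1.66 in WT UVB, 7.17 ± 2.56 in DE2 untreated and 18.4 ± 6.84 in DE2 UVB skin. Every irradiated DE2 library lay above all 9 others, and every irradiated WT library below all 3 untreated WT libraries. Ctsw (chromosome 19, 5465043 to 5468507), the cathepsin, had 21, 5 and 9 counts in WT untreated, 2, 2 and 7 in WT UVB, 23, 20 and 12 in DE2 untreated and 22, 50 and 9 in DE2 UVB skin. The irradiated DE2 libraries were above the irradiated WT libraries but overlapped the untreated DE2 libraries. Ctsw shares 9 exonic bases (0.477% of its own) with Fibp on the opposite strand, and no source used here gives the strand setting of the counting.

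Granzyme and perforin transcripts were near 0 in most libraries. Gzma (chromosome 13, 113093825 to 113100981), granzyme A, had 0, 0 and 0 counts in WT untreated, 3, 0 and 9 in WT UVB, 9, 1 and 0 in DE2 untreated and 52, 20 and 0 in DE2 UVB skin. It was uneven within irradiated DE2 skin, at 6.33 ± 7.19 CPM (SD, n = 3), and the replicate without a count is the smallest library. Gzmb (chromosome 14, 56258838 to 56262260), granzyme B, had 14, 0 and 0 counts in WT untreated, 6, 0 and 8 in WT UVB, 1, 0 and 0 in DE2 untreated and 12, 45 and 4 in DE2 UVB skin. All irradiated DE2 libraries held Gzmb counts and lay above all untreated DE2 libraries, but they overlapped both WT groups. Prf1 (chromosome 10, 61297833 to 61304680), perforin, had 2, 0 and 6 counts in WT untreated, 0, 0 and 0 in WT UVB, 0, 2 and 0 in DE2 untreated and 10, 1 and 15 in DE2 UVB skin. It was thus detected in all 3 irradiated DE2 libraries and in none of the irradiated WT libraries, where a floor of 3 counts over the group corresponds to 0.273 CPM and the exact 95% upper limit to 0.335 CPM.

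Receptor transcripts were as scarce. Klrd1 (chromosome 6, 129591782 to 129598775), or CD94, had 6, 11 and 2 counts in WT untreated, 9, 5 and 0 in WT UVB, 1, 0 and 0 in DE2 untreated and 13, 22 and 10 in DE2 UVB skin. Its 3 irradiated DE2 libraries stood at 4.17 ± 1.0 CPM (SD, n = 3) and lay above all 9 others. Klrk1 (chromosome 6, 129610323 to 129623864), or NKG2D, had 21, 0 and 2 counts in WT untreated, 10, 6 and 2 in WT UVB, 1, 0 and 7 in DE2 untreated and 33, 15 and 3 in DE2 UVB skin. All 4 groups overlapped for it, and 1 WT untreated library held 21 of its group's 23 counts. Il2rb (chromosome 15, 78479256 to 78495271), the interleukin receptor chain, had 0, 0 and 1 counts in WT untreated, 0, 14 and 6 in WT UVB, 4, 1 and 2 in DE2 untreated and 0, 22 and 6 in DE2 UVB skin. Unlike Klrd1, it was at 0 in 1 library of each irradiated group, and the irradiated groups overlapped.

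Of the secreted proteins, Ccl5 was the better detected. Ccl5 (chromosome 11, 83525778 to 83530518) had 1, 0 and 3 counts in WT untreated, 0, 0 and 5 in WT UVB, 10, 5 and 1 in DE2 untreated and 27, 17 and 27 in DE2 UVB skin. The level of this chemokine in irradiated DE2 skin was 7.10 ± 2.87 CPM (SD, n = 3), and those 3 libraries lay above all 9 others. Ifng (chromosome 10, 118441046 to 118445892) had 3, 0 and 1 counts in WT untreated, 0, 0 and 0 in WT UVB, 0, 0 and 0 in DE2 untreated and 3, 1 and 0 in DE2 UVB skin. Interferon gamma transcript was at the limit of detection in every group, and no fold is given for it. Ifng also shares 336 exonic bases (25.9%) with the same-strand gene Gm49751.

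**Figure D2:**
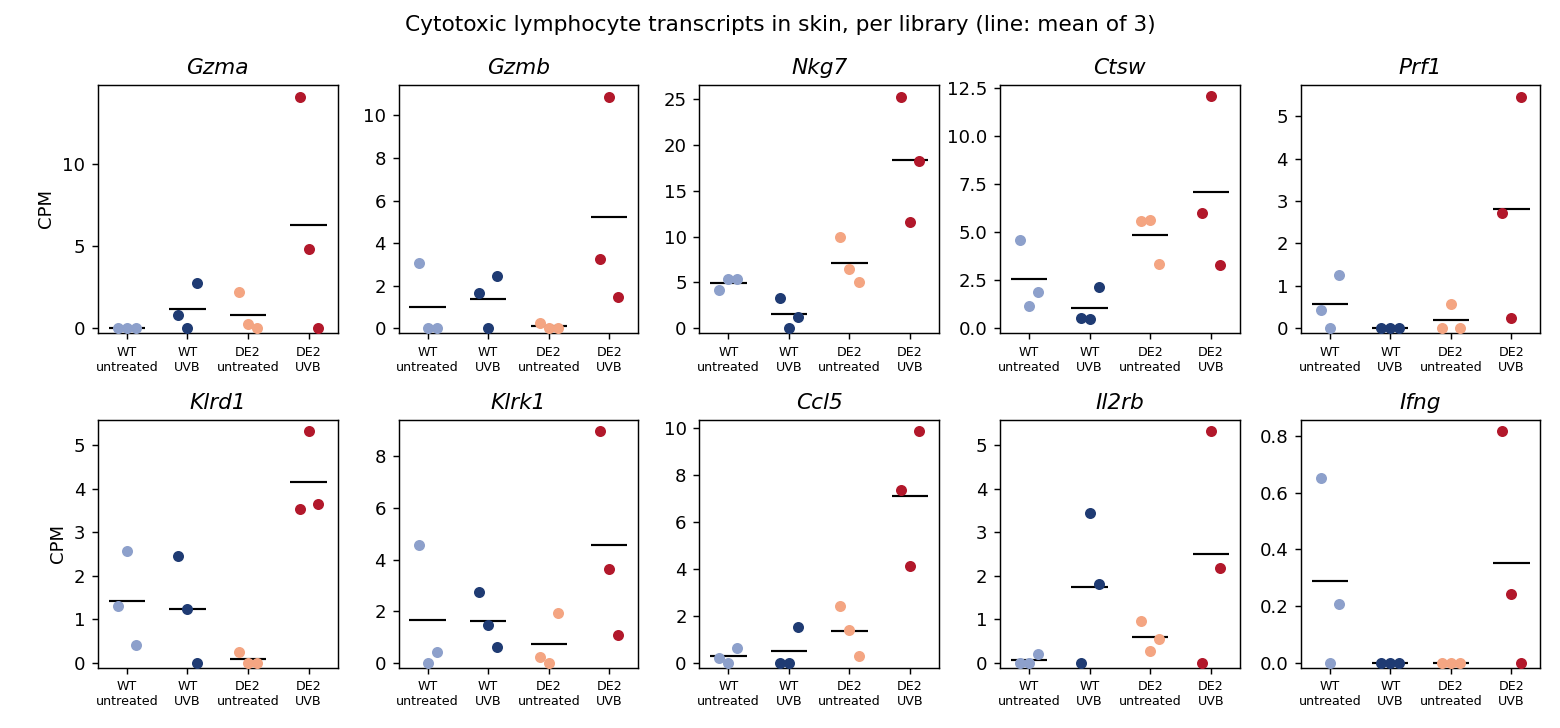
Level of each transcript in CPM (vertical axis, a separate linear scale for each gene) in the 3 libraries of each group (horizontal axis), as points with a line at the mean. Nkg7, Klrd1 and Ccl5 have all 3 irradiated DE2 points above the other 9, whereas Gzma, Il2rb and Ifng have an irradiated DE2 point at 0.

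Per length of exon, the levels in irradiated DE2 skin ran from Nkg7 at 20.1 ± 7.49 CPM per kb (SD, n = 3) through Ccl5 at 7.40 ± 2.99, Gzma at 6.29 ± 7.15, Ctsw at 3.77 ± 2.39, Gzmb at 3.62 ± 3.49 and Klrd1 at 3.25 ± 0.782 to Prf1 at 1.09 ± 1.01, Klrk1 at 0.636 ± 0.560, Il2rb at 0.584 ± 0.624 and Ifng at 0.272 ± 0.324. Between neighbours in this order, only the steps from Nkg7 to Ccl5 and from Klrd1 to Prf1 were larger than the SD of each. From Ccl5 to Klrd1, and from Prf1 to Ifng, neighbours differed by less than the larger of their SDs. In untreated skin Nkg7 stood at 5.44 ± 0.792 CPM per kb in WT and 7.84 ± 2.8 in DE2.

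The design crosses genotype with irradiation and so gives the response to UVB in each genotype, the genotype difference at each site and the difference between the responses. The genes were tested with edgeR's quasi-likelihood test over all 12 libraries, with Benjamini-Hochberg adjustment over the 15126 genes that passed a filter on low counts, and called at an adjusted p below 0.05. The filter asked for 2.49 CPM in at least 3 libraries. It kept Gzma, Gzmb, Nkg7, Ctsw, Klrd1, Klrk1 and Ccl5 and left out Prf1, Il2rb and Ifng. Ccl5 reached that level only in the 3 irradiated DE2 libraries, and Gzma, Gzmb, Klrd1 and Klrk1 reached it in 1 or 2 libraries outside that group, so these genes could pass only with a high level in irradiated DE2 skin. Calls of these genes are therefore a description. So are counts, shares and medians over the 7 tested genes, also where the values of all genes stand beside them.

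Irradiated DE2 skin held more Nkg7 than irradiated WT skin, with a log2 fold change of 3.60 ± 0.78 (SE; adjusted p = 0.0213, edgeR), and all 3 DE2 libraries were above all 3 WT libraries. It was the only one of the 7 tested transcripts called, and 2.35% of all tested genes were called higher in this comparison and 0.608% lower. Ccl5 (3.79 ± 1.30, adjusted p = 0.150), Ctsw (2.76 ± 0.85, adjusted p = 0.105) and Klrd1 (1.72 ± 1.11, adjusted p = 0.527) had libraries that did not overlap but did not pass. The values of Gzma (2.43 ± 1.55, adjusted p = 0.529), Gzmb (1.95 ± 1.43, adjusted p = 0.599) and Klrk1 (1.49 ± 1.32, adjusted p = 0.690) were positive with overlapping libraries. In all, 4 of the 7 did not overlap between the genotypes, against 21.3% of all tested genes. The median log2 fold change of the 7 was 2.43, against -0.03 over all genes. Because the filter favored genes high in irradiated DE2 skin, this share and median are a description only. Prf1, left out by the filter, had 26 counts against 0, and the exact 95% interval of the ratio starts at 6.84. Set against a floor of 3 counts over the irradiated WT group, it was 9.04-fold higher. That value leaves out the counting error of the 26 and is not a lower bound. Prf1 was not called when no filter was used (adjusted p = 0.0521). The Nkg7 call ended without WT UVB replicate 3 (0.0884) or DE2 UVB replicate 1 (0.0895) or 3 (0.0543), and DESeq2 called Nkg7, Ctsw and Ccl5.

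Gzmb and Klrd1 were called higher after UVB in DE2 skin, in each case against a single count in the untreated group. Both passed the filter only with their level in irradiated DE2 skin, so these calls are a description of genes selected that way. Gzmb rose by a log2 fold change of 5.47 ± 1.88 (SE; adjusted p = 0.0416, edgeR) and Klrd1 by 5.14 ± 1.45 (adjusted p = 0.0159), each higher in 3 of 3 irradiated libraries. The ratio of summed counts was 65.0 for Gzmb (61 counts against 1, exact 95% interval 11.2 to 2607) and 47.9 for Klrd1 (45 against 1, 8.17 to 1934), intervals that cover counting error only. These 2 of 7 tested transcripts stand against 14.4% of all genes called higher and 13.4% called lower, and 4 of the 7 (Gzmb, Nkg7, Klrd1 and Ccl5) did not overlap, against 41.5% of all genes. Ccl5 (2.32 ± 1.17, adjusted p = 0.157), Nkg7 (1.35 ± 0.68, adjusted p = 0.158), Klrk1 (2.62 ± 1.42, adjusted p = 0.191), Gzma (2.86 ± 1.58, adjusted p = 0.204) and Ctsw (0.56 ± 0.76, adjusted p = 0.632) were not called. The median of the tested transcripts was 2.62 and that of all genes 0.02, again a description after that filter. The Klrd1 call ended without DE2 untreated replicate 2 (0.0649) or 3 (0.0661), and the Gzmb call without WT UVB replicate 1 (0.0526) or DE2 untreated replicate 1 (0.0639) or 2 (0.126) or 3 (0.129) or DE2 UVB replicate 1 (0.0612) or 2 (0.163). Both ended with a muscle term in the fit (Gzmb 2.11, adjusted p = 0.807, and Klrd1 5.55, 0.266) or a hair follicle term (Gzmb 12.98, 0.948, and Klrd1 3.90, 0.970). Over all genes the calls went from 4202 to 750 with the muscle term and to 0 with the hair follicle term.

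In WT skin no tested transcript was called changed with UVB by edgeR (0 of 7, smallest adjusted p = 1, 2 of 7 at an unadjusted p below 0.05) or by DESeq2, where edgeR called 0.0198% of all genes. The 2 were Nkg7, with a log2 fold change of -1.72 ± 0.76, and Gzma, with 12 counts against 0. Set against the same floor, Gzma was 4.97-fold higher after UVB, and its exact 95% interval starts lower, at 3.46. Nkg7 alone did not overlap between the groups, against 10.1% of all genes. Ctsw had 11 counts after UVB against 35 before (ratio 0.391, exact 95% interval 0.179 to 0.787). Prf1 had 0 counts against 8, 2.14-fold lower when set at that floor, but the exact 95% interval of its ratio reaches 0.728. It was not called by edgeR when no filter was used (adjusted p = 0.906). Il2rb had 20 counts against 1 (ratio 24.9, 3.98 to 1031), and was not called by edgeR when no filter was used (adjusted p = 0.531). These intervals cover counting error only and leave out the spread between libraries. The median of the tested transcripts was -0.04 and that of all genes 0.03.

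Without irradiation no tested transcript was called different between DE2 and WT skin by edgeR (0 of 7, smallest adjusted p = 0.0892, 1 of 7 at an unadjusted p below 0.05) or DESeq2, where edgeR called 11.8% of all genes higher and 11.2% lower. Klrd1 was the closest, at -3.60 ± 1.46, with 1 count in DE2 against 19 in WT skin (ratio 0.0641, exact 95% interval 0.00154 to 0.403) and no overlap, against 39.8% of all genes without overlap. Gzmb also had 1 count in DE2, against 14 in WT skin (ratio 0.0870, 0.00206 to 0.572), but all 14 came from replicate 1. Gzma had 10 counts against 0, 4.06-fold higher in DE2 when set against the floor of 3 counts, with an exact 95% interval from 2.73. It passed when no filter was used (adjusted p = 0.0359). Ccl5 had 16 counts against 4 (ratio 4.87, with 1.57 as the lower bound of its interval). These intervals, too, cover counting error only. The transcripts thus stood on both sides of 0, with a median of 0.53 against 0.03 over all genes.

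The response to UVB was not called different between the genotypes for any of the 7 (0 of 7 by edgeR, smallest adjusted p = 0.0674, 2 of 7 at an unadjusted p below 0.05), while 5.64% of all genes had a higher and 4.84% a lower response in DE2 skin. The largest differences were those of Klrd1 (5.33 ± 1.83, adjusted p = 0.0750), Gzmb (5.08 ± 2.39, adjusted p = 0.190) and Nkg7 (3.07 ± 1.02). DESeq2 called Nkg7 (adjusted p = 0.0111) and Klrd1 (0.0349), and edgeR called Nkg7 without WT UVB replicate 1 (0.0224) or DE2 untreated replicate 1 (0.0497). Nkg7, the most counted of the 10, had values of opposite sign by genotype, -1.72 ± 0.76 in WT and 1.35 ± 0.68 in DE2 skin, neither of which was called.

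**Figure D3:**
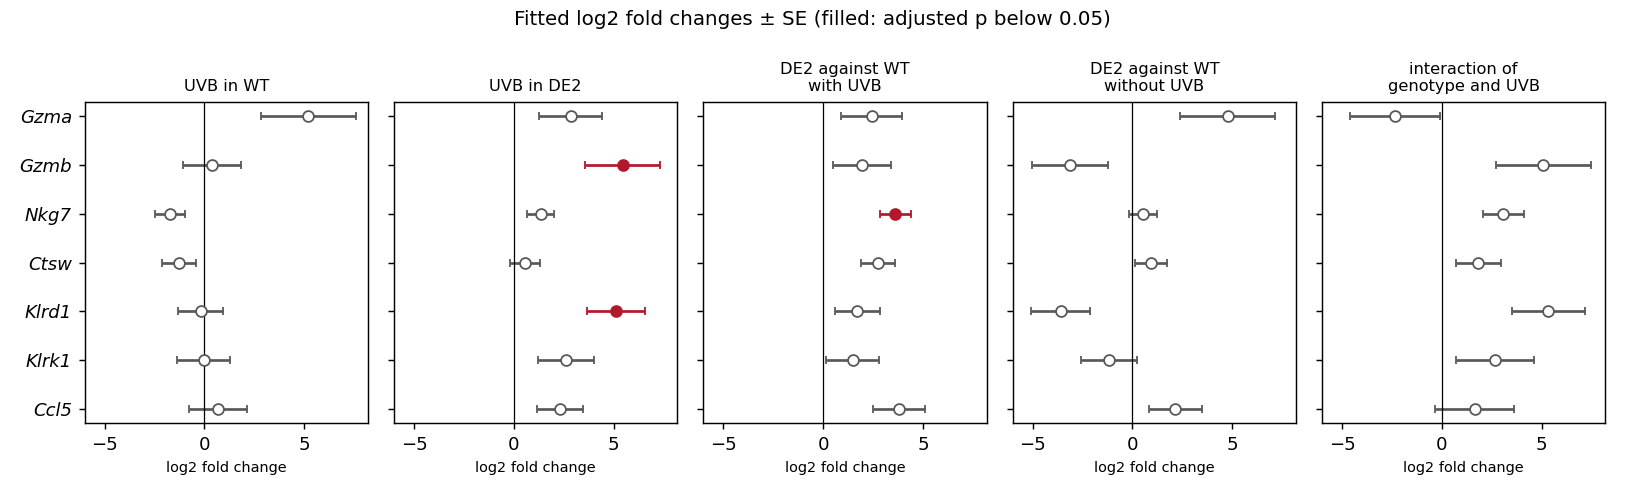
Fitted log2 fold change ± SE (horizontal axis) of the 7 tested transcripts (vertical axis) in each of the 5 comparisons, filled where the adjusted p is below 0.05. The filled points are Gzmb and Klrd1 for UVB in DE2 skin and Nkg7 for irradiated DE2 against irradiated WT skin. Gzmb and Klrd1 passed the filter only with their level in irradiated DE2 skin, so their filled points are a description. The Gzma values against WT untreated skin rest on a group with 0 counts and are not bounds.

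The rest of the killing machinery was described through 7 lists of 90 genes. Every count of list genes called stands beside the share of all tested genes called. With UVB in DE2 skin 14.4% of all genes were called higher and 13.4% lower. Between the genotypes, 2.35% were called higher in DE2 and 0.608% lower in irradiated skin, and 11.8% and 11.2% in untreated skin. A muscle term in the fit ended 17 of the 19 calls of these lists for UVB in DE2 skin and 14 of the 15 in untreated skin, and a hair follicle term ended all of both. Over all genes the calls went from 4202 to 750 and from 3477 to 412 with the muscle term, and to 0 with the hair follicle term. The list calls were thus lost along with most calls of all genes. In irradiated skin the muscle term ended none of 9 calls and the hair follicle term 4 (Jak1 0.76, Ccl4 4.7, Ccr1 3.49 and Cd274 3.59, adjusted p = 0.169, 0.0711, 0.0876 and 0.0751). There the calls over all genes went from 448 to 642 with the muscle term and to 132 with the hair follicle term. Among 17 granule partners, 12 were tested. In irradiated skin Srgn, the proteoglycan core that packs granzymes and also the granules of neutrophils and mast cells, was higher in DE2 than in WT (3.50 ± 0.37, adjusted p = 2.13e-04), the only list member called. Srgn had 99, 100 and 56 counts in WT UVB and 1288, 1127 and 426 counts in DE2 UVB skin. With UVB in DE2 skin 4 partners rose, Srgn (3.77 ± 0.38, adjusted p = 6.67e-06), Ctsc, which activates granzymes (1.61 ± 0.33, adjusted p = 0.00279), Ctsh (1.02 ± 0.22, adjusted p = 0.00368) and the fusion regulator Stxbp2 (0.81 ± 0.21, adjusted p = 0.0113). Stxbp2 lost its call without DE2 untreated replicate 3 (0.0554). Lamp1, a lysosome membrane protein named after its value was seen, fell by 0.78 (SE 0.21, adjusted p = 0.0144). That call ended without DE2 untreated replicate 2 (0.0509) or DE2 UVB replicate 1 (0.0636) or 3 (0.0611), or with total counts as the scale (0.0615). The list medians were 0.31 and 0.91 in these comparisons, against -0.03 and 0.02 over all genes. Other granzymes were scarce: Gzmk and Gzmd had 0 counts in the 12 libraries, Gzme 1, Gzmf 4, Gzmm 72 and Gzmc 81.

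In untreated skin Lamp1 was higher in DE2 (1.07 ± 0.22, adjusted p = 0.00294), and Lyst, a regulator of lysosome-related granules, was lower (-0.82 ± 0.25, adjusted p = 0.0269), with a list median of 0.12. These calls among 12 tested partners stand against 11.8% of all genes called higher and 11.2% called lower. The Lyst call ended without WT untreated replicate 1 (0.0627) or 3 (0.0538) or DE2 untreated replicate 2 (0.0690) or 3 (0.108), and without a filter (0.127).

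Of 18 natural killer receptors and ligands, 6 were tested. Tyrobp, the DAP12 adaptor shared by natural killer cells and myeloid cells, was higher in irradiated DE2 than irradiated WT skin (2.04 ± 0.40, adjusted p = 0.0133) and rose with UVB in DE2 skin (1.90 ± 0.40, adjusted p = 0.00295), the only member called in either. The call in irradiated skin ended without WT UVB replicate 3 (0.0659) or DE2 UVB replicate 1 (0.0569). The list medians were 1.70 and 0.54. Ncr1, a defining natural killer receptor, had 0 counts in the 12 libraries, Klrb1c 1, Klra4 2 and Klra8 2. In untreated skin H2-T23, which encodes Qa-1, the ligand read by Klrd1 with its partner, was higher in DE2 (1.15 ± 0.32, adjusted p = 0.0197), with a list median of 0.77. That call ended without WT untreated replicate 1 (0.0928) or 2 (0.108) or DE2 untreated replicate 1 (0.0990), or with total counts as the scale (0.111).

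Of 13 genes around interleukin 2 and 15, 11 were tested. Il7r, the interleukin 7 receptor chain of T cells and innate lymphoid cells, was higher in irradiated DE2 than irradiated WT skin (4.91 ± 1.18, adjusted p = 0.0356), with 74, 33 and 19 counts against 2, 2 and 0. Jak1, the kinase shared by these receptors, was also higher (0.96 ± 0.20, adjusted p = 0.0156). The Il7r call ended without WT UVB replicate 1 (0.0978) or 2 (0.0704) or 3 (0.122) or DE2 UVB replicate 1 (0.162) or 2 (0.0944) or 3 (0.0577), and the Jak1 call without WT UVB replicate 1 (0.0848) or 3 (0.0796) or DE2 UVB replicate 1 (0.0652) or 2 (0.0854). With UVB in DE2 skin Il7r rose (3.25 ± 1.04, adjusted p = 0.0299) and Stat5b, a transcription factor downstream of the receptors, fell by 1.47 (SE 0.47, adjusted p = 0.0301). The Il7r call ended without DE2 untreated replicate 2 (0.0750) or 3 (0.0857) or DE2 UVB replicate 1 (0.146) or 2 (0.0503), and the Stat5b call without DE2 untreated replicate 2 (0.0625) or 3 (0.145) or DE2 UVB replicate 1 (0.135) or 2 (0.0763), or with total counts as the scale (0.0542). In untreated skin Il15ra, which presents interleukin 15 (1.62 ± 0.36, adjusted p = 0.00484), Jak1 (0.75 ± 0.19, adjusted p = 0.0125) and Stat5b (1.39 ± 0.46, adjusted p = 0.0429) were higher in DE2. Jak1 lost that call without WT untreated replicate 2 (0.108), Stat5b without WT untreated replicate 1 (0.0984) or 2 (0.165) or 3 (0.119) or DE2 untreated replicate 2 (0.0809) or 3 (0.180) or DE2 UVB replicate 2 (0.0586), and both with total counts as the scale (0.210 and 0.124). The list medians were 0.88 for irradiated skin, -0.47 for UVB in DE2 and 0.71 for untreated skin. The cytokine Il2 had 10 counts in all.

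The chemokine list around Ccl5 held 8 genes, of which 5 were tested. Ccl3 and Ccl4 are chemokines related to Ccl5 and are made by lymphocytes and by neutrophils and macrophages. Ccl4 had 8, 0 and 0 counts in WT untreated, 19, 40 and 1 in WT UVB, 2, 11 and 1 in DE2 untreated and 1867, 1233 and 500 in DE2 UVB skin. Ccl3 had 18, 3 and 9 counts in WT UVB and 1005, 624 and 187 counts in DE2 UVB skin. In irradiated skin Ccl4 (5.96 ± 0.79, adjusted p = 0.00165), Ccl3 (5.88 ± 0.76, adjusted p = 0.00214) and the receptor Ccr1 (3.01 ± 0.70, adjusted p = 0.0310) were higher in DE2. With UVB in DE2 skin Ccl4 (8.0 ± 0.92, adjusted p = 4.05e-05), Ccl3 (6.58 ± 0.80, adjusted p = 1.42e-04) and Ccr1 (2.81 ± 0.69, adjusted p = 0.00731) rose. Ccr1 lost the call of irradiated skin without WT UVB replicate 2 (0.0785) or 3 (0.105) or DE2 UVB replicate 1 (0.123) or 2 (0.110), and with total counts as the scale (0.0507). The list medians were 3.01 and 2.81, and these comparisons share the irradiated DE2 libraries. In untreated skin none was called by edgeR (median 1.06). There Ccl3 had 10, 9 and 0 counts in DE2 against 0, 0 and 0 in WT (adjusted p = 0.0590).

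Genes that induce interferon gamma gave no call in irradiated skin (0 of 9 tested of 14 listed by edgeR, median 0.26). Those with the smallest p were the interleukin 18 receptor chains Il18r1 (3.88 ± 1.08, adjusted p = 0.0697) and Il18rap (4.12 ± 1.2, adjusted p = 0.0728). With UVB in DE2 skin the transcription factors Prdm1 (1.34 ± 0.27, adjusted p = 0.00197) and Id2 (1.12 ± 0.25, adjusted p = 0.00374) rose, and the receptor chain Il12rb2 fell by 3.75 (SE 1.11, adjusted p = 0.0203) with overlapping libraries. The Il12rb2 call ended without DE2 untreated replicate 1 (0.0881) or DE2 UVB replicate 2 (0.0638) or 3 (0.0648), and the list median was 0.75. In untreated skin Id2 (-1.79 ± 0.25, adjusted p = 1.52e-04) and Prdm1 (-1.15 ± 0.26, adjusted p = 0.00621) were lower in DE2, and the list median was 0.36. Both are also expressed in epidermis and hair follicle, and hair follicle transcripts were lower in the same libraries. With a hair follicle term neither was called in untreated skin (Id2 -0.34, adjusted p = 0.987, and Prdm1 -1.21, adjusted p = 0.961). With that term no gene at all was called in this comparison, against 3477 without it. The fit therefore cannot decide the part of hair follicle in these 2 values. Tbx21, which encodes the transcription factor T-bet, had 28 counts in all and Eomes 1.

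Some genes of the interferon gamma response list, which also holds the receptor chains and Jak2, were higher in DE2 skin at each site. In irradiated skin 2 of 13 tested of 14 listed passed, Irf1 (1.83 ± 0.34, adjusted p = 0.00955) and Cd274, which encodes PD-L1 (3.05 ± 0.71, adjusted p = 0.0310), with a list median of 0.91. Irf1 lost its call without DE2 UVB replicate 2 (0.0567), and Cd274 without WT UVB replicate 1 (0.123) or 3 (0.123) or DE2 UVB replicate 1 (0.144) or 2 (0.0839) or 3 (0.0503), or with total counts as the scale (0.0559). In untreated skin 7 of 13 were higher in DE2 and none lower, against 11.8% of all genes called higher, with a median of 1.15 against 0.03 over all genes. A muscle term left 1 of the 7, Iigp1, and a hair follicle term 0. Over all genes the calls went from 3477 to 412 and 0 with these terms. The 4 with the smallest p were Ifngr1 (1.40 ± 0.28, adjusted p = 0.00284), Jak2 (1.29 ± 0.29, adjusted p = 0.00545), the GTPase Iigp1 (2.99 ± 0.70, adjusted p = 0.00833) and Ifngr2 (1.02 ± 0.28, adjusted p = 0.0167). The count of 7 ranged from 3 to 7 when 1 library was left out. Ifngr2 lost its call without WT untreated replicate 1 (0.0795) or 2 (0.0942) or DE2 untreated replicate 3 (0.0625), and with total counts as the scale (0.0912), where the median of all genes moved to -0.37.

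With UVB in DE2 skin Cd274 (2.67 ± 0.69, adjusted p = 0.0100) and the chemokine Cxcl10 (2.32 ± 0.79, adjusted p = 0.0393) rose, while the receptor chains Ifngr1 and Ifngr2 fell, by 1.22 (SE 0.28, adjusted p = 0.00495) and 0.88 (SE 0.28, adjusted p = 0.0297), with a list median of 0.38. The Cd274 call ended without DE2 UVB replicate 1 (0.0545), the Cxcl10 call without DE2 untreated replicate 2 (0.132) or 3 (0.134) or DE2 UVB replicate 1 (0.150) or 2 (0.0743), and the Ifngr2 call without WT untreated replicate 1 (0.0528) or DE2 untreated replicate 2 (0.0792) or 3 (0.111) or DE2 UVB replicate 1 (0.0954) or 2 (0.0563) or 3 (0.0997), or with total counts as the scale (0.0820).

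Of the death receptor route, with 4 of 6 genes tested, Tnf rose with UVB in DE2 skin (4.10 ± 1.26, adjusted p = 0.0255), and the list median was 0.64. That call ended without DE2 untreated replicate 2 (0.0792) or 3 (0.0808) or DE2 UVB replicate 1 (0.113), and by DESeq2 (0.0555). In irradiated skin none of the 4 was called by edgeR (median 0.80), and those with the smallest p were Tnf (3.82 ± 1.24, adjusted p = 0.127) and the death receptor Fas (0.96 ± 0.70, adjusted p = 0.597). In untreated skin none of the 4 was called by edgeR (median 0.29) and 1 was at an unadjusted p below 0.05, while 1 was called without WT untreated replicate 3, without a filter, or by DESeq2 or limma voom. The smallest p values were those of Tnfsf10, or TRAIL, at 2.94 ± 1.17 (adjusted p = 0.0827) and its receptor Tnfrsf10b at -1.18 ± 0.82 (adjusted p = 0.333). Fasl, the ligand of Fas, had 3 counts in the 12 libraries.

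UVB in WT skin called none of the tested genes of the 7 lists by edgeR. The pair with the smallest p in each list had log2 fold changes of 0.56 ± 0.22 for Ctsh and 0.60 ± 0.33 for Ctsc, -3.37 ± 2.01 for Cd244a and 0.51 ± 0.40 for Tyrobp, and -1.77 ± 1.18 for Il7r and -0.68 ± 0.49 for Stat5a. In the chemokine list Ccl3 had 18, 3 and 9 counts after UVB against 0, 0 and 0 before, and Ccl4 stood at 3.11 ± 1.11. Around interferon gamma the values were -3.15 ± 1.08 for Il18r1, 0.61 ± 0.25 for Prdm1, 1.95 ± 0.69 for Iigp1 and 2.01 ± 0.75 for Cxcl9, and for death receptor genes 1.66 ± 1.15 for Tnfsf10 and -0.58 ± 0.70 for Fas. The smallest adjusted p among them was 0.738, that of Ccl3. The list medians lay between -0.13 and 1.5.

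**Figure D4:**
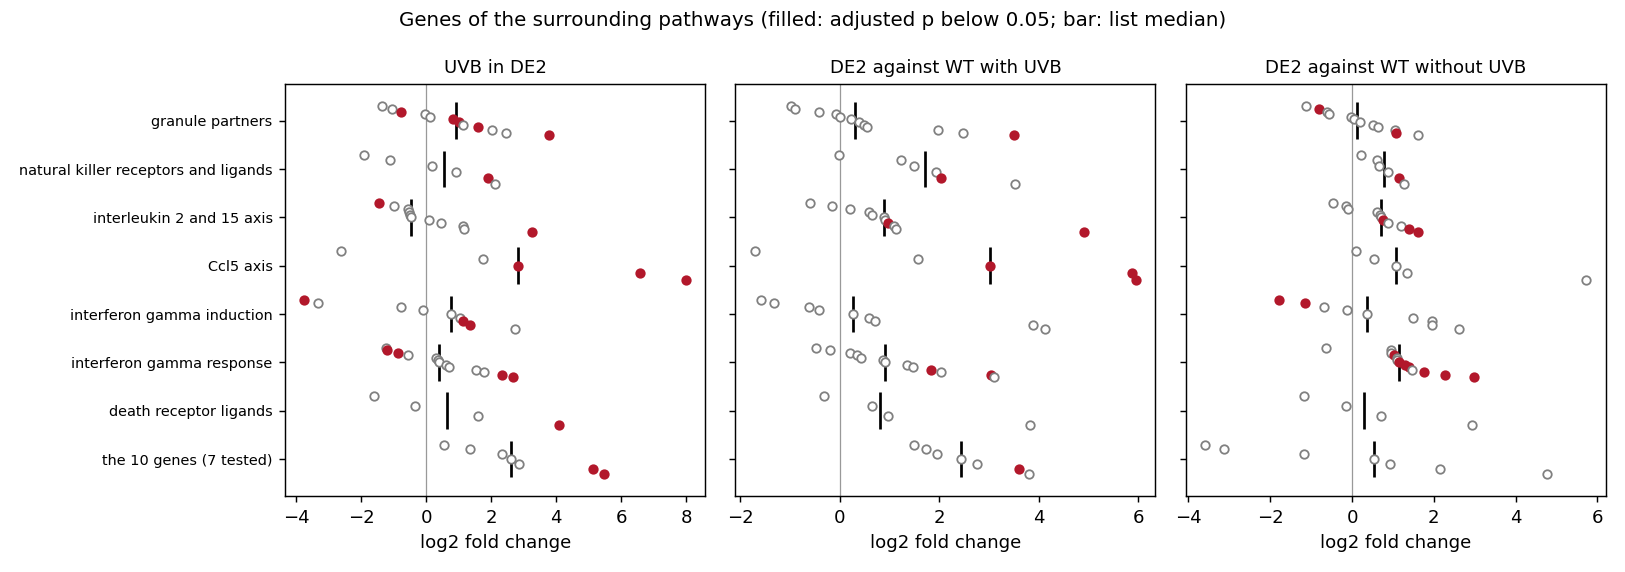
Log2 fold changes (horizontal axis) of the tested genes of each pathway list and of the 7 tested transcripts (rows) in 3 comparisons; each point is a gene, filled where the adjusted p is below 0.05, and the bar is the list median. The chemokine list has a median of 3.01 in irradiated skin, and 7 filled points of the interferon gamma response list lie above 0 in untreated skin.

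Markers of the cells that could carry these transcripts moved unequally. The natural killer list, of 10 markers, had 27 counts in WT untreated, 46 in WT UVB, 35 in DE2 untreated and 30 in DE2 UVB skin. Its summed level was 0.417 to 3.48, 2.13 to 5.21, 1.11 to 5.12 and 1.46 to 3.39 CPM in that order, so the groups overlapped. Ncr1 was at 0 in every library, Klrb1c and Eomes had 1 count each, and the most abundant markers, Gzmc and Klrc1, had 81 and 32 counts. The CD8 T cell list, of 9 markers, summed to 17.5 to 33.1 CPM in WT untreated, 18.2 to 25.5 in WT UVB, 26.4 to 52.9 in DE2 untreated and 74.0 to 100 in DE2 UVB skin. Most of that sum was general T cell transcript: in irradiated DE2 skin Trbc2 stood at 46.4 ± 9.14 CPM and Cd3g at 9.87 ± 4.28, against 4.93 ± 3.87 for Cd8a and 6.31 ± 3.63 for Cd8b1 (SD, n = 3). Trbc2, a T cell receptor beta constant gene, had the most counts of it and was higher in irradiated DE2 than irradiated WT skin (1.66 ± 0.30, adjusted p = 0.00770), while the next, Cd3g, was not called (2.41 ± 0.80, adjusted p = 0.136). Cd8a, named with Cd8b1 after their values were seen because they define CD8 cells, had 0, 0 and 3 counts in WT untreated, 0, 0 and 0 in WT UVB, 17, 5 and 0 in DE2 untreated and 32, 4 and 14 in DE2 UVB skin. Cd8b1 had 3, 0 and 0 counts in WT untreated, 0, 0 and 4 in WT UVB, 8, 5 and 2 in DE2 untreated and 38, 22 and 9 in DE2 UVB skin. Neither was called against irradiated WT skin (adjusted p = 0.0928 and 0.149). The part of these cells in the levels of the 10 transcripts was not tested.

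Markers of other cells followed several patterns. The 5 CD4 T cell markers, Cd5 and Icos the most abundant, summed to 0.466 to 2.50 CPM in WT untreated, 0 to 10.1 in WT UVB, 1.13 to 10.7 in DE2 untreated and 15.2 to 25.9 in DE2 UVB skin. In irradiated DE2 skin Cd5 stood at 9.86 ± 3.82 and Icos at 6.27 ± 2.75 CPM (SD, n = 3), of a mean sum of 19.7. That sum thus rested mainly on genes other than Cd4. Cd4 had no count in DE2 untreated skin, and Cd40lg none in WT UVB or DE2 untreated skin. Trdc, the constant gene of the T cell receptor delta chain, had 28 counts in WT untreated, 7 in WT UVB, 16 in DE2 untreated and 10 in DE2 UVB skin. The 9 neutrophil markers, S100a8 and S100a9 the most abundant, summed to 32.2 to 54.4, 183 to 381, 10.2 to 165 and 4151 to 4450 CPM in the same order. Mast cell markers (9 genes, led by Hdc and Kit) summed to 67.0 to 89.9, 70.3 to 101, 38.2 to 115 and 208 to 287 CPM, and macrophage markers (9 genes, led by Lyz2 and C1qb) to 272 to 783, 498 to 991, 551 to 1126 and 1012 to 1380 CPM. Hdc carried the rise of the mast cell sum, at 3.99 ± 2.21 CPM in DE2 untreated and 164 ± 72.5 in DE2 UVB skin (SD, n = 3). Of other mast cell genes, singled out after their values were seen, Mrgprb2 went from 9.08 ± 1.90 to 0 CPM, and Mcpt4, Cma1, Tpsb2 and Cpa3 were not called. Kit was lower in irradiated DE2 than irradiated WT skin (-2.45 ± 0.45, adjusted p = 0.00825, edgeR). S100a8 and S100a9 are also made by stressed keratinocytes. Of markers singled out after their values were seen, Retnlg had 323 counts in irradiated DE2 against 5 in irradiated WT skin, Csf3r 312 against 14 and Cxcr2 215 against 23. By edgeR Retnlg was called (adjusted p = 0.0157), while Csf3r (0.163) and Cxcr2 (0.174) were not, and the Cxcr2 libraries overlapped. Srgn, Tyrobp, Ccl3, Ccl4 and Ccl5 are expressed by such myeloid cells as well, and how much of their level came from which cells was not tested.

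**Figure D5:**
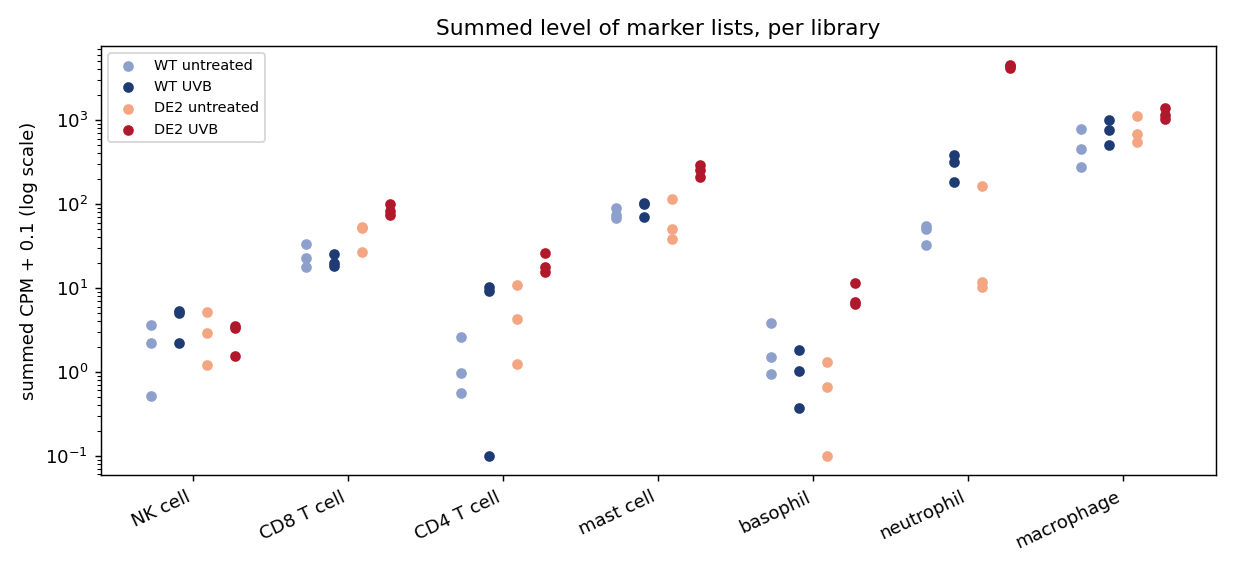
Summed CPM + 0.1 (vertical log axis) of 7 lists of cell type markers (horizontal axis), 1 point per library, colored by group. Natural killer markers overlap in all 4 groups, the CD8 T cell list, led by the general T cell gene Trbc2, reaches 74.0 to 100 CPM in irradiated DE2 skin, and neutrophil markers reach 4151 to 4450 CPM there.

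Among the 7 tested transcripts, log2 levels over the 12 libraries correlated unequally, from r = -0.003 for Ctsw with Klrd1 to r = 0.72 for Ctsw with Ccl5 over 21 pairs, a description over libraries that share groups, depth and tissue make-up. Of 13729 other genes, those whose log2 level followed the mean profile of the 7 most closely included Ifitm1, Clec7a and Ubash3b (r = 0.94 each), Pglyrp4 (0.93), Robo4 and Tyro3 (0.91 each), Enah (0.90) and Hif1a and Ccr1 (0.89 each). Of the genes on the 7 lists, only Ccr1 is among those named here.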

How the data were processed

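Bulk RNA-seq of mouse skin was read from 12 deposited files of raw, whole-number read counts (53465 Ensembl identifiers, 53274 with a symbol). The submitters' processing notes name HTSeq 2.0.2, SAMtools 1.16, Picard 3.1.0 and Trimmomatic 0.39, and the build GRCm38. Aligner, annotation release, strand setting and handling of duplicates: not given in the sources used here. Unremoved duplicates could raise the count of a rare transcript in a single library.

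Totals were 2809142 to 4741726 counts. Tests were edgeR 4.0.16 (R 4.3.3), robust quasi-likelihood with TMM over 15126 genes, 1 model of 4 groups and 5 contrasts. The alternatives were limma 3.58.1 (voom), DESeq2 1.42.0, other scalings and filters, a muscle or hair follicle term, a 2-fold threshold, only the libraries compared, and libraries left out. Floors are 3 counts, and intervals are exact 95% ones that cover counting error only. Replicates were numbered in accession order. The scripts were tested on simulated data.

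The 10 genes, 7 pathway lists, marker lists and motifs were chosen with earlier results of these data known. All 10 are named. Of each list the called genes with the smallest p (up to 4) are named, or 2 where none was called. The 10 most alike genes had the highest Pearson r among those whose average log2 CPM reached 1. Markers are given as counts and ranges with the 2 most abundant. Some genes and 1 marker list that these rules would name are not reported here. Untreated libraries carry lower library numbers than irradiated ones, so site and library order cannot be told apart.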

Additional observations from a re-analysis of the deposited data

Results flagged for a closer look

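The response to UVB was called different between the genotypes, by the interaction term of the edgeR fit, for 3 genes of the pathway lists. Over all tested genes, 5.64% were called with a higher and 4.84% with a lower response in DE2 skin. The count of 3 is therefore a description and not a trait of these lists. Srgn, the granule proteoglycan core, responded more in DE2 skin by 3.30 ± 0.51 on the log2 scale (SE; adjusted p = 9.68e-04), with 3.77 ± 0.38 there against 0.47 ± 0.36 in WT skin. Id2, a transcription factor of innate lymphocytes and of epithelium, differed by 1.18 ± 0.34 (adjusted p = 0.0395), and the call was lost in 8 of 12 fits without 1 library (adjusted p up to 0.0985). Iigp1, a GTPase induced by interferon, differed by -3.18 ± 0.95 (adjusted p = 0.0486). Its levels were 7.26 ± 5.61 CPM (SD, n = 3) in WT untreated, 28.3 ± 5.07 in WT UVB, 57.9 ± 56.7 in DE2 untreated and 24.6 ± 9.04 in DE2 UVB skin, and 10 of 12 fits without 1 library lost the call (adjusted p up to 0.110), as did total counts as the scale (0.0737). Untreated DE2 skin, which enters each interaction, is the group with more muscle and less hair follicle transcript, and with a hair follicle term in the fit none of the 3 was called (Srgn 3.51, adjusted p = 0.959; Id2 0.0078, 1.0; Iigp1 -5.68, 0.959). With a muscle term the calls of Id2 (0.499) and Iigp1 (0.0651) ended. Over all genes the interaction calls went from 1585 to 1 with the hair follicle term and to 287 with the muscle term. In the other 4 lists no interaction was called by edgeR, and the genes with the smallest p were Tyrobp (1.39 ± 0.56) and H60c (1.26 ± 0.66), Il7r (5.01 ± 1.56) and Stat5b (-1.54 ± 0.66), Ccr1 (2.48 ± 0.97) and Ccl4 (4.89 ± 1.91), and Tnf (3.96 ± 1.77) and Tnfsf10 (-3.26 ± 1.59).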

How the results depend on the processing

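Scarcity sets the limits: the stricter filter (at least 100 counts in all and 1 CPM in 3 libraries) tested only 3 of the 10 genes. No paired analysis was possible because the labels give no shared replicate numbers.

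Called transcripts numbered 2 for UVB in DE2 skin, and 0 with the stricter filter, the muscle term, the hair follicle term or the 2-fold threshold, 1 with only the libraries compared, 3 without both WT UVB replicate 2 and DE2 untreated replicate 1 (Nkg7 added, adjusted p = 0.0362), and 0 to 2 with 1 library left out. In irradiated skin the count of 1 became 2 without a filter, 3 with DESeq2, 0 against the 2-fold threshold and 0 to 1 with 1 library left out. In untreated skin 0 became 1 without a filter. For the interaction 0 became 2 without a filter (Nkg7, and Prf1 with adjusted p = 0.0355), 2 with DESeq2, 1 without both WT UVB replicate 2 and DE2 untreated replicate 1, which differ from their groups in muscle transcripts, and 0 to 1 with 1 library left out. UVB in WT skin gave 0 in every alternative run.

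Total counts as the scale moved the median of all genes from 0.03 to -0.37 in untreated skin, from 0.02 to 0.26 for UVB in DE2 and from 0.04 to 0.38 for the interaction. The share of calls that were higher moved from 51.3% to 20.7%, from 51.9% to 66.5% and from 53.8% to 76.8%. Genes called over the whole table numbered 3 for UVB in WT, 4202 for UVB in DE2, 448 in irradiated skin, 3477 in untreated skin and 1585 for the interaction. UVB in WT gave 1 with total counts, 141 without a filter, 6 with the muscle term, 20 with DESeq2, 0 at 2-fold or with only the libraries compared, 19 without those 2 libraries and 0 to 15 with 1 left out. UVB in DE2 gave 750 with the muscle term, 0 with the hair follicle term and 1162 at 2-fold. Irradiated skin gave 1031 without a filter, 853 with DESeq2, 132 with the hair follicle term, 49 at 2-fold, 754 without those 2 libraries and 130 to 616 with 1 left out. Untreated skin gave 412, 0 and 777 with the muscle term, the hair follicle term and 2-fold, and 2108 to 3881 with 1 library left out. The interaction gave 287, 1 and 419 with these, 2438 without a filter and 878 to 2585 with 1 left out.

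With the muscle term the sign of the log2 fold change turned for Gzmb (-0.49), Klrk1 (0.0036) and Ccl5 (-0.53) with UVB in WT, and for Gzma (-1.03), Ctsw (-1.0), Ccl5 (-0.55), Stat5b (0.29) and Ifngr2 (0.16) with UVB in DE2, and for Stat5b (-0.35) in untreated skin, and for Ccl5 (-0.021) in the interaction. With the hair follicle term the sign of the log2 fold change turned for Klrk1 (1.13) with UVB in WT, and for Gzma (-7.40), Nkg7 (-2.10), Ccl5 (-3.03), Ctsc (-1.06), Ctsh (-0.26), Stxbp2 (-0.61), Lamp1 (0.54), Tyrobp (-0.84), Il7r (-3.43), Stat5b (2.50), Id2 (-0.19), Ifngr2 (1.40) and Tnf (-6.32) with UVB in DE2, and for Gzmb (-0.22) in irradiated skin, and for Ctsw (-1.33), Lamp1 (-0.42), Jak1 (-0.37), Stat5b (-3.05) and Ifngr2 (-1.54) in untreated skin, and for Nkg7 (-0.047) and Ccl5 (-3.07) in the interaction. With limma voom the sign of the log2 fold change turned for Klrk1 (1.2) and Ccl5 (-0.040) with UVB in WT. Without WT UVB replicate 2 and DE2 untreated replicate 1 the sign of the log2 fold change turned for Klrk1 (0.015) with UVB in WT. With 1 library left out the sign turned in at least 1 fit for Gzmb (-0.34 to 5.39), Klrd1 (-1.11 to 0.50), Klrk1 (-0.64 to 2.72) and Ccl5 (-3.35 to 1.82) with UVB in WT, and for Ctsw (-0.065 to 0.89) with UVB in DE2, and for Gzmb (-5.02 to 1.84) and Klrk1 (-3.37 to 1.53) in untreated skin, and for Gzma (-3.67 to 0.012) and Klrk1 (-0.041 to 4.86) in the interaction. The cause was not tested. Of 1736 recomputed log2 fold changes, 1480 kept their direction and side of the threshold, 196 lost and 11 gained the call, and 49 turned; of 798 recomputed list counts, 179 moved, 110 of them downward.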
